A study of Mus musculus with 18 samples.

Results

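Osteoblasts are the bone-forming cells that marrow stromal progenitors can become, and 9 genes of that path were followed here: Runx2, Sp7, Dlx5, Alpl, Spp1, Ibsp, Bglap, Mgp and Fgfr2. They were taken by symbol from the deposited count table, where all 9 were found among 54347 genes. The choice was made by name, with no threshold on the values. The libraries, 6 groups of 3, came from mesenchymal stem cells (MSC) grown from the marrow of male C57BL/6J mice, in which actin structure was disturbed. Of the untransfected cells, the control group was untreated, the CK666 group received an inhibitor of the Arp2/3 complex, which starts branches on actin filaments, and the CytoD group received cytochalasin D, which caps filament ends. Of the transfected cells, the siControl group received the control siRNA (a mock siRNA in the labels), the siArp4 group an siRNA against Arp4, a nuclear actin-related protein encoded by Actl6a, and the siArp4+CK666 group that siRNA and CK666 together. Per the paper, marrow from several mice went into a primary cell line that served all studies, and each condition had distinct culture preparations. The replicates do not measure the spread between animals, and no source ties a library to an animal. The labels state no dose, and per the methods RNA was taken a day after treatment. An siRNA lowers a transcript without deleting the gene, and a group given siControl and CK666 was not analysed here, so the effect of CK666 in transfected cells is known only with Arp4 lowered.

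Commitment to the osteoblast lineage runs through transcription factors. Runx2 is required for it, Sp7 (osterix) acts after Runx2, and Dlx5 is a homeobox factor that can act upstream of both. Maturing osteoblasts then make tissue-nonspecific alkaline phosphatase (Alpl), which releases phosphate for mineral, the acidic proteins osteopontin (Spp1) and bone sialoprotein (Ibsp), and osteocalcin (Bglap), a late marker whose glutamates are carboxylated with vitamin K. Matrix Gla protein (Mgp) carries the same modification and holds back calcification, and Fgfr2 is a receptor for fibroblast growth factors that works in skeletal progenitors.

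Library totals ran from 18075610 to 24733212 estimated counts, and 12563 to 13234 genes per library reached a count of 10. Replicates were not repeats of the same library, since chi-square per degree of freedom between them was at least 6.79, and the siControl libraries stood furthest apart (119.7 to 425.1, against at most 107.8 in the other groups). The target of the siRNA, Actl6a, averaged 896 ± 209 normalized counts in siControl cells (SD, n = 3, as for every group mean below). Knockdown cells held 41.7 ± 20.1, or 4.66% of that, and 16.8 ± 6.76, or 1.87%, when CK666 was added. Of 11 stromal markers Pdgfrb, Pdgfra, Cxcl12 and Vcam1 were abundant, Thy1 was at 0 in all 18 libraries and Nt5e under 10. Of 5 osteocyte markers, Sost was at 0 and Dmp1, Mepe and Fgf23 stayed under 10 in all 18 libraries, while Phex averaged 23.02 to 89.3 normalized counts per group. Of 10 markers of macrophages and other blood cells, Ptprc, Tyrobp and Itgam stayed under 10, while Cd14, Cd68, Csf1r and Lyz2 were detected, at group means from 13.4 to 109.4. These are bulk libraries, in which fewer cells of a type and less RNA per cell cannot be told apart. Replicates are preparations of the primary cell line, so the p-values measure only the spread between these samples.

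Levels were very uneven among the 9 genes. On the scale of all 18 libraries, divided by the length of the main transcript, Spp1 averaged 118828 normalized counts per kb and Mgp 22949, whereas Runx2 averaged 189, Fgfr2 175, Dlx5 11.2, Bglap 9.74, Alpl 5.27 and Sp7 1.14. Spp1 was the most abundant gene of every control, CytoD and siArp4 library. Ibsp was at 0 in all 18, where a count of 0 allows up to 3 counts per library, so nothing is compared for it. Estimated counts stayed under 10 in 17 of 18 libraries for Sp7, in 16 for Bglap, in 10 for Alpl and in 3 for Dlx5, and differences of those 4 genes rest on few reads.

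**Figure D1:**
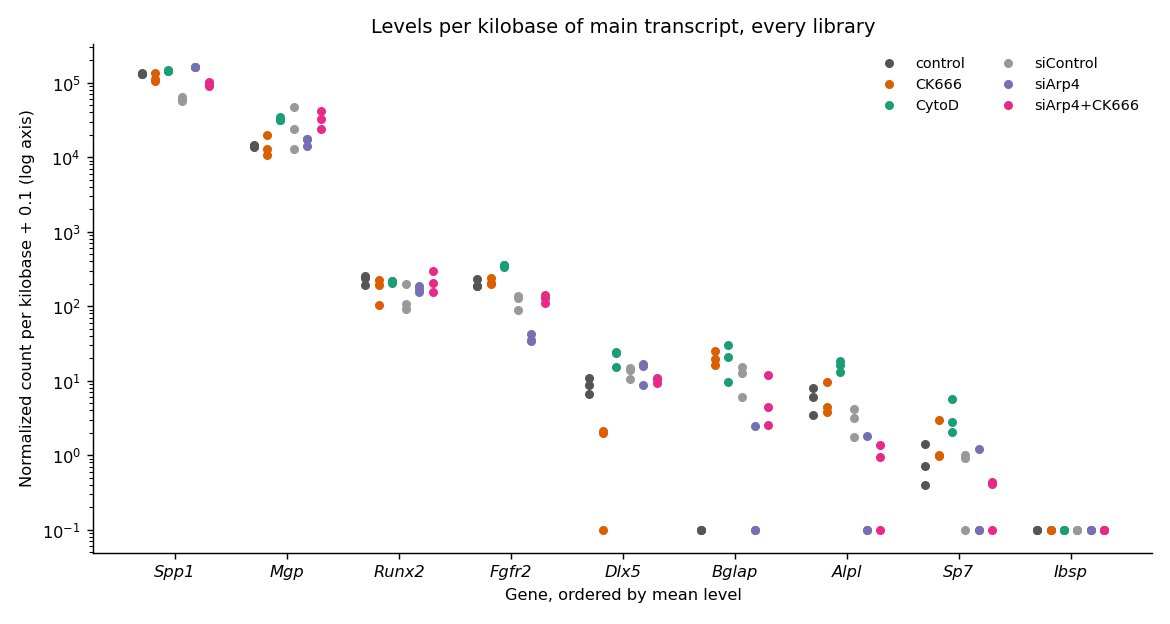
Normalized counts per kb of main transcript (log axis, 0.1 added, scaled over all 18 libraries) of the 9 genes, where each point is a library and colours mark the 6 groups. Spp1 and Mgp lie above the others in every library, Runx2 and Fgfr2 lie between, and Ibsp is at 0 throughout.

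Osteocalcin is the member with gene copies. In the mouse it has near-identical neighbours, Bglap2 and Bglap3, on the same strand of chromosome 3 (GRCm38, GENCODE vM21: Bglap ENSMUSG00000074483.2 at chr3:88383501-88384464, Bglap2 ENSMUSG00000074486.2 at chr3:88377736-88378699 and Bglap3 ENSMUSG00000074489.9 at chr3:88368616-88372743). Their coding sequences of 288 bases, read from the GENCODE vM21 transcripts, are shown because reads from these stretches can be assigned to a copy only through the few bases that differ, which stand in capitals in the copies:
Bglap: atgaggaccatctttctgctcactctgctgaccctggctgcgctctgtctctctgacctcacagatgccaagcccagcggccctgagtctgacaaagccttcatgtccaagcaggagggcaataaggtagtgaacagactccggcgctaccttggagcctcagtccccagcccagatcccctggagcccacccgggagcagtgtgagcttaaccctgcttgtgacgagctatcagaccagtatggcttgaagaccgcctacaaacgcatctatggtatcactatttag
Bglap2: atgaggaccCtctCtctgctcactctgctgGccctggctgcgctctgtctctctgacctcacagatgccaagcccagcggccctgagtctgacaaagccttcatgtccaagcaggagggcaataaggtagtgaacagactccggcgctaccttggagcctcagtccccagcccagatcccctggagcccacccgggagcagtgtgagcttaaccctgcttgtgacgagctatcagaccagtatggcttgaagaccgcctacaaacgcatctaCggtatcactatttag
Bglap3: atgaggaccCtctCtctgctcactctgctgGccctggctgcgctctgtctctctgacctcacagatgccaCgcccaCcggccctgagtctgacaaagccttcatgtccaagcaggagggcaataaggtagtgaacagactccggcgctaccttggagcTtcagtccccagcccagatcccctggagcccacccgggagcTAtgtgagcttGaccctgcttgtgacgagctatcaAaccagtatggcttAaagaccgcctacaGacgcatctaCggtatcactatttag
Bglap2 differed from Bglap at 4 positions (98.6% identity) and Bglap3 at 13 (95.5%). Over whole transcripts, 62.9% of the 588 words of 31 bases in Bglap also occur in another gene, with 56.1% of the 588 in Bglap2 and 33.3% in Bglap3. Of 441 words of Bglap2 95.2% occur elsewhere, and of 2682 words of the longer Bglap3 22.5%. The quantification had to divide such reads between the copies, so values of Bglap alone are uncertain and are given below with Bglap2 and with the sum of the 3 copies.

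The 250 bases before the annotated start were also read, from RefSeq promoters (GRCm38.p6), since Runx2 binds the letters TGTGGT, read on the other strand as ACCACA. RefSeq windows were found for Runx2, Alpl, Spp1, Ibsp, Bglap and Fgfr2, while Sp7, Dlx5 and Mgp were not matched. The letters occur, on either strand, in the windows of Bglap, Spp1 and Runx2 itself, printed on the strand of the gene with the motif in capitals:
Bglap, chr3:88384467-88384716: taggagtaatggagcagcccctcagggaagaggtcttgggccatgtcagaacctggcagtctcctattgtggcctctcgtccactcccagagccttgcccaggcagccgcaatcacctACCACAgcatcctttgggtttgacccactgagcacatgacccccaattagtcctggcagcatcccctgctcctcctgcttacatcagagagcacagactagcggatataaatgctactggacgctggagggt
Spp1, chr5:104434861-104435110: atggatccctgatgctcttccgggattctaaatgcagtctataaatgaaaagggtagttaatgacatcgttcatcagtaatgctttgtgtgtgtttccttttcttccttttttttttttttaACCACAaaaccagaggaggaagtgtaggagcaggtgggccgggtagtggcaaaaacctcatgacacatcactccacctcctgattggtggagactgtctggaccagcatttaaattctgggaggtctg
Runx2, chr17:44814628-44814877: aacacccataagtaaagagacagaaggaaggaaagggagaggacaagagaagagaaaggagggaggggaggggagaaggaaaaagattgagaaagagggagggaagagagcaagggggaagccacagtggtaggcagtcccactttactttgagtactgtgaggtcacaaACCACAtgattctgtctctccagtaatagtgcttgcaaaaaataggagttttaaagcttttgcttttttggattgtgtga
The motif starts at position -132 in Bglap, -128 in Spp1 and -80 in Runx2, counted from the start. It did not occur at a further start of Spp1 or in the windows of Ibsp, Alpl and Fgfr2. Of 32841 promoter windows 14.0% hold it, so a match describes the letters and is not a binding site. The Bglap and Spp1 windows also hold TATAAA on the strand of the gene, which 7.59% of windows do.

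Across the comparisons the genes did not move as a block. Calls required a change over 1 in size on the log2 scale and a DESeq2 adjusted p below 0.01, adjusted over all genes tested. CK666 against control called 2 of 8 members tested, Dlx5 lower and Bglap higher, where 11.0% of all genes were called. CytoD against control called Mgp and Bglap, both higher, of 8 tested (9.12% of all genes). The treatments share their control libraries, and set directly against CytoD, CK666 cells had lower Dlx5 and Mgp, 2 of 8 tested (11.8% of all genes).

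In transfected cells siArp4 against siControl called 2 of 7, Spp1 higher and Fgfr2 lower (16.2% of all genes). With siArp4+CK666 against siControl none of 7 was called, where 20.4% of all genes were. Of those 7, Runx2 and Spp1 had an unadjusted p below 0.05. Spp1 also passed the adjusted p threshold (adjusted p = 5.18e-09) and missed only the fold minimum. edgeR called none either. Adding CK666 to knockdown cells called 1 of 5, Fgfr2 higher (5.75% of all genes). Between the untreated groups, siControl against control called 2 of 7, Spp1 lower and Bglap higher (24.1% of all genes), in a contrast where transfection and experiment cannot be told apart. With so few members tested, these counts describe the genes and do not set them apart from all genes.

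The median log2 fold change of the members tested stood at 0.04 for CK666, 1.24 for CytoD and -0.79 for siArp4, beside medians over all genes of 0.01, 0.01 and -0.05. It was 0.11 for siArp4+CK666 against siControl and 0.38 against siArp4, beside -0.05 and 0.02 over all genes. With CytoD the largest changes were those of Bglap, Sp7, Alpl and Dlx5, which rest on few reads. Of these only Bglap was called. The other members tested with CytoD had 1.203 for Mgp, 0.80 for Fgfr2, 0.13 for Spp1 and -0.097 for Runx2. The CytoD median is therefore not a typical change of the well-expressed members. The siArp4 median was the value of Mgp, which was not called.

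**Figure D2:**
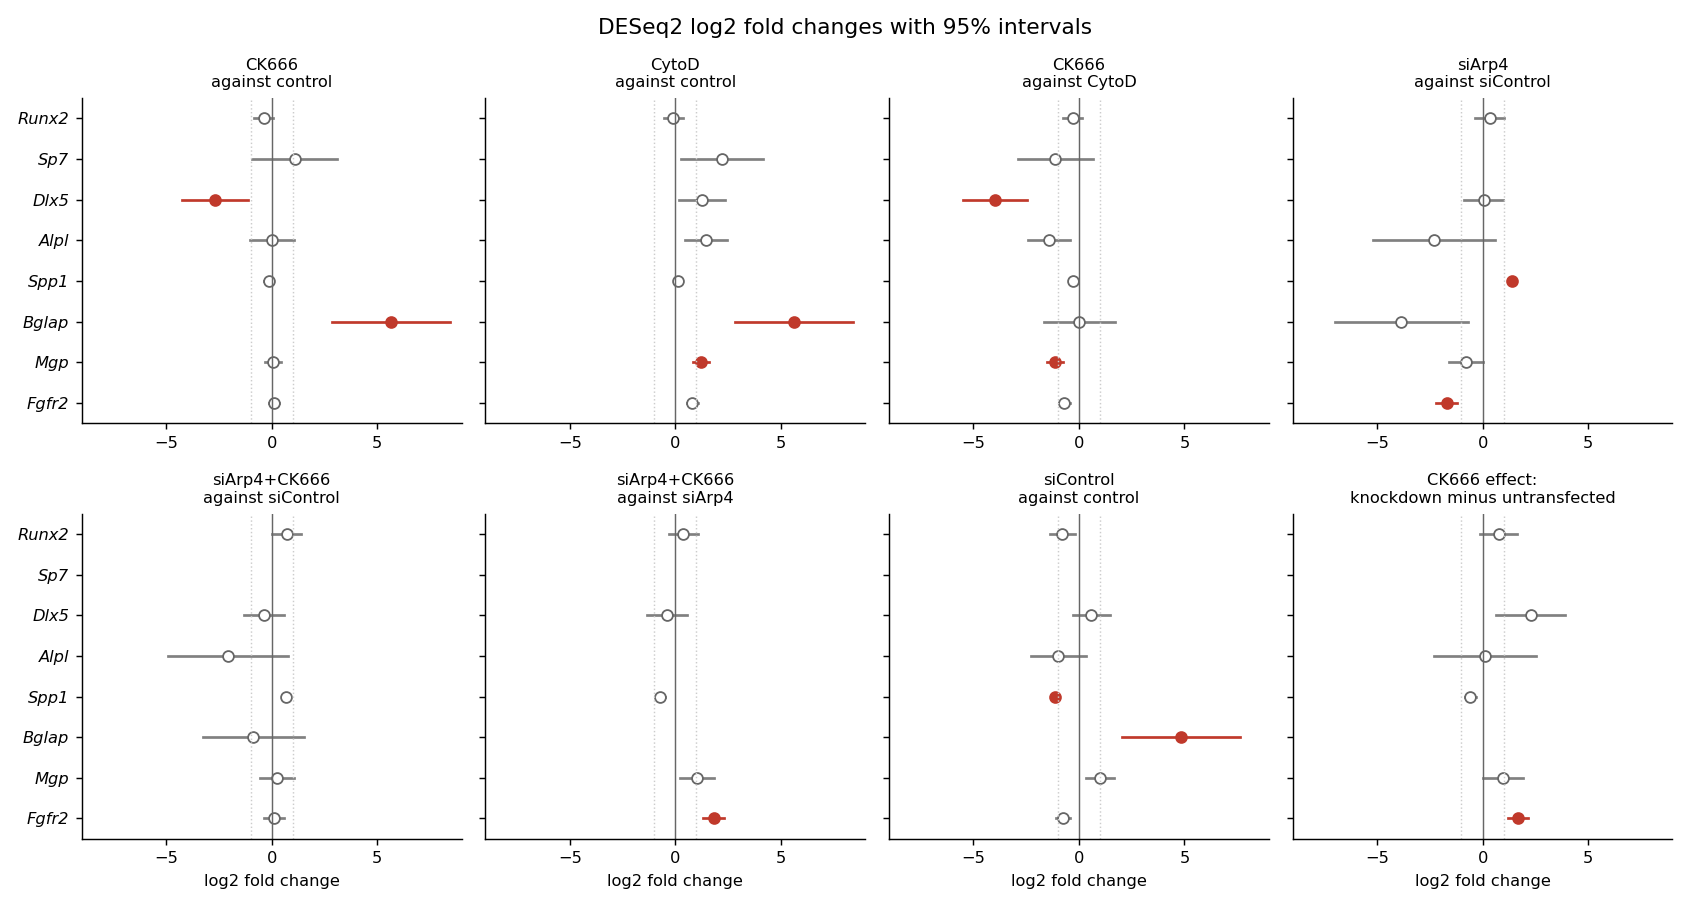
Log2 fold changes of the tested members with 95% intervals in each comparison, with filled red points for called genes and Ibsp left out because it was at 0. Dlx5 lies lowest under CK666, Fgfr2 turns from -1.70 with siArp4 to 1.81 when CK666 is added, and most intervals of Runx2 and Sp7 cross 0.

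Of the transcription factors, Runx2 (ENSMUSG00000039153.17, chr17:44495987-44814797, minus strand) was expressed in all libraries and was not called in any comparison. Normalized counts, scaled within each experiment here and below, were 1174, 1517 and 1457 in control cells, 637, 1351 and 1183 in CK666 cells and 1308, 1329 and 1243 in CytoD cells. They were 1183, 528 and 626 in siControl, 894, 974 and 1078 in siArp4 cells and 1744, 1188 and 895 in siArp4+CK666 cells. The low CK666 library overlapped no control library, but the other CK666 libraries fell among the controls, and the siControl libraries spread over more than the siArp4 libraries did. For CK666 against control the log2 fold change was -0.39 (95% interval -0.84 to 0.07, adjusted p = 0.181).

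With siArp4+CK666 against siControl Runx2 had a log2 fold change of 0.71 (adjusted p = 0.0968). That value depended on siControl replicate 1, without which it was 1.15 with an adjusted p of 0.000174, and the same library held Runx2 in siControl against control at -0.78 (adjusted p = 0.0242) where its absence gave -1.20 (adjusted p = 6.33e-05). Runx2os1, on the opposite strand, covers 5.87% of the Runx2 exons at a mean of 58.3 normalized counts, and unstranded reads cannot separate them.

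Sp7 (ENSMUSG00000060284.7, chr15:102356606-102367182, minus strand) was the weakest detected member. Control libraries held 0.967, 1.95 and 4.14 normalized counts, CK666 libraries 2.95, 9.17 and 2.79 and CytoD libraries 8.50, 17.4 and 6.18. All CytoD libraries lay above all control libraries, but the change did not pass the test (2.20 on the log2 scale, SE 0.995, adjusted p = 0.0660). The transfected groups averaged 1.77 ± 1.54, 1.12 ± 1.94 and 0.670 ± 0.583 in the order siControl, siArp4 and siArp4+CK666, with no library above 3.37, and had no adjusted p at this depth.

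Dlx5 (ENSMUSG00000029755.10, chr6:6877805-6882085, minus strand) was lowest with CK666 and highest with CytoD among the untransfected groups. Control libraries held 9.67, 12.7 and 15.5 normalized counts, CK666 libraries 2.95, 0 and 2.79 and CytoD libraries 35.1, 22.3 and 34.0. No library of any of these groups overlapped another group, and in CK666 cells 1 library held none. Dlx5 fell with CK666 to 15.2% of control (-2.70 on the log2 scale, SE 0.80, adjusted p = 0.00281) and stood at 6.28% of the CytoD level (-3.97 on the log2 scale, SE 0.78, adjusted p = 2.26e-06). CytoD against control gave 1.27 (adjusted p = 0.0558), which did not pass.

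The comparison of CK666 with CytoD held under all 16 alternatives tried. The call against control was lost under 7 of the 16. Its adjusted p was 0.0278 without CK666 replicate 2, 0.0191 without CK666 replicate 3, 0.0114 without control replicate 2 and 0.0188 without control replicate 3. With edgeR it was 0.0107, with only the groups compared 0.0286 and tested against a log2 fold change of 1 it was 0.654. In transfected cells the groups overlapped, at 18.3 ± 3.05 in siControl, 18.8 ± 5.88 in siArp4 cells and 14.2 ± 1.40 in siArp4+CK666 cells, and CK666 added to knockdown cells gave -0.40 (95% interval -1.35 to 0.55).

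**Figure D3:**
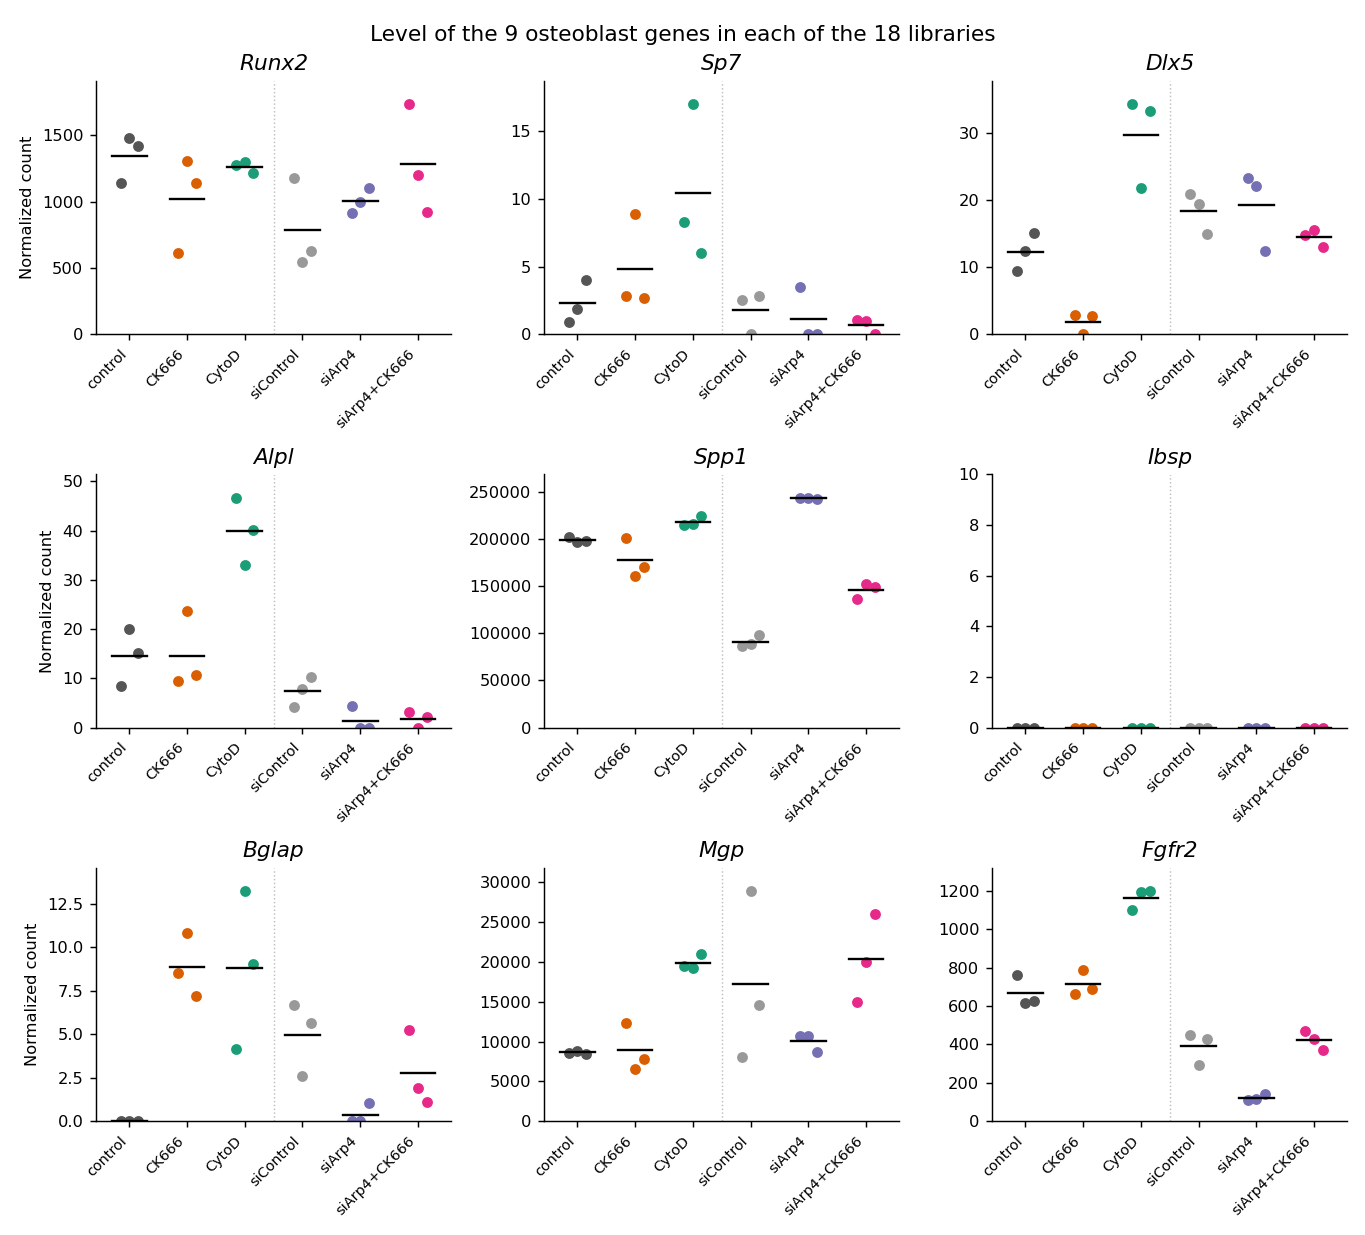
Normalized counts (scaled over all 18 libraries) of the members in each of the 6 groups, with points for libraries, a black bar for the group mean and a dotted line between the untransfected and the transfected experiment. The CK666 points of Dlx5 lie under all other groups, the siArp4 points of Fgfr2 lie lowest and those of Spp1 highest, and the siControl points of Mgp and Runx2 are widely spread.

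Alkaline phosphatase, Alpl (ENSMUSG00000028766.10, chr4:137741733-137796384, minus strand), was highest with CytoD. Libraries held 8.71, 20.4 and 15.5 normalized counts in control, 9.82, 24.5 and 11.2 in CK666 and 47.8, 33.9 and 41.2 in CytoD cells. Every CytoD library lay above every control and CK666 library, whereas control and CK666 overlapped. The change with CytoD did not pass (1.46 on the log2 scale, SE 0.51, adjusted p = 0.0134), but it did when genes without a count of 10 in at least 3 libraries were left out beforehand (adjusted p = 0.00944). CK666 left Alpl at 102% of control with a 95% interval of -1.03 to 1.07 on the log2 scale, which spans a halving and a doubling. In transfected cells Alpl stood at 7.34 ± 3.05 in siControl and at 1.40 ± 2.43 in siArp4 cells, where it was at 0 in 2 of 3 libraries, and the difference did not pass (adjusted p = 0.228).

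Osteopontin, Spp1 (ENSMUSG00000029304.14, chr5:104435118-104441050, plus strand), carried the most reads. Normalized counts were 87155, 85946 and 97618 in siControl, 237262, 238042 and 236586 in siArp4 cells and 137453, 149752 and 144974 in siArp4+CK666 cells. No transfected group overlapped another, with siArp4+CK666 between the others. Spp1 rose with siArp4 to 263% of siControl (1.39 on the log2 scale, SE 0.11, adjusted p = 9.94e-36), a call that held under all 16 alternatives. Knockdown with CK666 gave 159.6% of siControl (0.67 on the log2 scale, SE 0.11, adjusted p = 5.18e-09) and 60.7% of siArp4 (-0.72 on the log2 scale, SE 0.11, adjusted p = 1.51e-09), both below the fold minimum.

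In untransfected cells Spp1 varied less. Control libraries held 208535, 201740 and 202555 normalized counts, CK666 libraries 209460, 165944 and 176674 and CytoD libraries 219753, 221226 and 229342, and the CK666 libraries overlapped the controls. The log2 fold change was -0.15 with CK666 (95% interval -0.35 to 0.05) and 0.13 with CytoD (95% interval -0.07 to 0.33), and neither passed. As a share of all counts Spp1 averaged 0.989% in control, 0.914% in CK666, 1.15% in CytoD, 0.432% in siControl, 1.14% in siArp4 and 0.701% in siArp4+CK666 cells, and siControl cells held 45.8% of the control level (-1.13 on the log2 scale, SE 0.09, adjusted p = 2.23e-36). On the scale of all 18 libraries the siArp4 mean of 243259 normalized counts lay above the CytoD mean of 218166 and the control mean of 198814, without overlap. Gm42793, on the same strand, shares 18.8% of the Spp1 exon bases at a mean of 55.6 normalized counts.

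Osteocalcin and its copy Bglap2 rose with both untransfected treatments. Bglap was at 0 in every control library and held 8.84, 11.2 and 7.44 normalized counts in CK666 and 4.25, 13.6 and 9.27 in CytoD cells. Against a floor of 3 counts per library these means were at least 3.08-fold and at least 3.03-fold higher than control (adjusted p = 0.000393 and 0.000424), while CK666 and CytoD overlapped. Bglap2, which took 43.9% to 100% of the counts of the 3 copies (median 72.5%), held 3.87, 5.84 and 20.7 in control, 108, 76.5 and 68.8 in CK666 and 36.1, 44.5 and 42.2 in CytoD cells.

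No Bglap2 library of CK666 or CytoD overlapped the controls, and both rises were called (3.07 on the log2 scale, SE 0.50, adjusted p = 8.14e-09 with CK666, 2.03 on the log2 scale, SE 0.51, adjusted p = 0.000333 with CytoD). With CK666 the Bglap2 libraries also lay above all CytoD libraries, although that difference did not pass (adjusted p = 0.0469). It did pass with only the groups compared in the fit (1.05 on the log2 scale, adjusted p = 0.00826). The sum of the copies went from 11.4 ± 8.09 in control to 97.3 ± 20.4 in CK666 and 51.0 ± 10.3 in CytoD cells, and both were called (log2 fold change 3.10, adjusted p = 2.87e-11, and 2.17, adjusted p = 9.22e-06). edgeR's filter on low counts removed Bglap, Bglap had no adjusted p in some of the fits that left out a library, and with edgeR the rise of Bglap2 under CytoD had an adjusted p of 0.0116.

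With siArp4 the sum of the osteocalcin copies fell. Bglap held 6.71, 2.52 and 5.60 normalized counts in siControl, 0, 0 and 1.002 in siArp4 cells and 5.29, 1.91 and 1.05 in siArp4+CK666 cells. Bglap2 held 15.1, 32.7 and 17.7 in siControl, 1.68, 5.40 and 2.004 in siArp4 cells and 6.34, 4.77 and 8.43 in siArp4+CK666 cells. The siArp4 libraries lay below all siControl libraries for both genes. Bglap alone did not pass with siArp4 (adjusted p = 0.0502), Bglap2 fell (-2.87 on the log2 scale, SE 0.77, adjusted p = 0.000992), and the sum fell from 33.5 ± 11.4 to 5.34 ± 2.88 (log2 fold change -2.67, adjusted p = 7.92e-05). The call of Bglap2 was lost without siArp4 replicate 1 (adjusted p = 0.0169), siArp4 replicate 3 (0.0132) or siControl replicate 2 (0.0198). With CK666 added the sum stood at 11.0 ± 2.61, and the rise of Bglap2 over siArp4 did not pass (1.14, adjusted p = 0.442).

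Between the untreated groups Bglap was at least 1.71-fold higher in siControl than in control cells (adjusted p = 0.00190), which was lost without control replicate 1 (adjusted p = 0.0112) or replicate 3 (0.0106). It had no adjusted p with only the groups compared, without control replicate 2 or without siControl replicate 3. Bglap2 overlapped between these groups and did not pass (1.15 on the log2 scale, adjusted p = 0.0650). The sum of the copies gave a log2 fold change of 1.60 in that contrast (adjusted p = 0.00172).

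**Figure D4:**
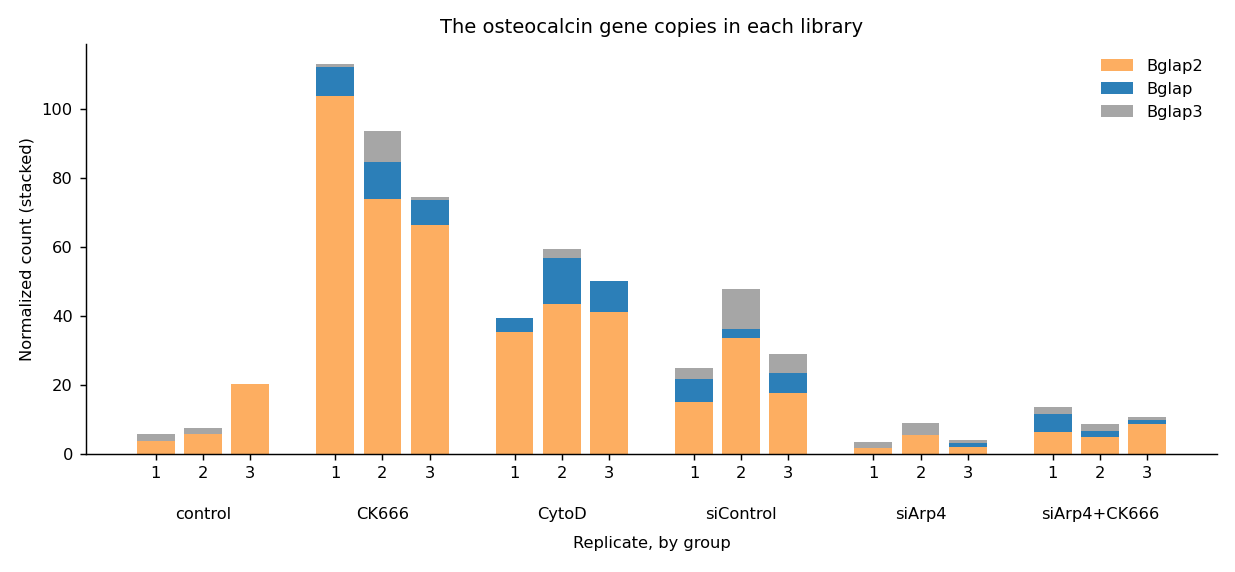
Normalized counts (scaled over all 18 libraries) of Bglap2, Bglap and Bglap3 stacked for each library, grouped by condition. Bglap2 makes up most of the bars, which are tallest in the CK666 libraries and low in the control, siArp4 and siArp4+CK666 libraries.

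Matrix Gla protein, Mgp (ENSMUSG00000030218.2, chr6:136872435-136875823, minus strand), was the second most abundant member and rose with CytoD. Control libraries held 8887, 9093 and 8601 normalized counts, CK666 libraries 12833, 6742 and 8132 and CytoD libraries 19974, 19642 and 21562. All CytoD libraries lay above the rest, and the CK666 libraries spread to both sides of the controls. Mgp with CytoD reached 230.2% of control (1.203 on the log2 scale, SE 0.20, adjusted p = 1.14e-08), and CK666 cells held 45.3% of the CytoD level (-1.14 on the log2 scale, SE 0.20, adjusted p = 5.78e-08), which came to -0.95 and under the fold minimum without CK666 replicate 2. The log2 fold change of CK666 against control was 0.06 (95% interval -0.33 to 0.45).

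Transfected cells held 8082, 28122 and 14511 normalized counts of Mgp in siControl, 10409, 10409 and 8498 in siArp4 cells and 15001, 19777 and 25342 in siArp4+CK666 cells. The siControl libraries spanned the whole range of the other groups, and siArp4+CK666 lay above siArp4 without overlap. None of these differences passed, with -0.79 (adjusted p = 0.119) for siArp4 against siControl and 1.04 (adjusted p = 0.0670) for siArp4+CK666 against siArp4. Without siControl replicate 1 the former was -1.13 (adjusted p = 0.000903), and with only the groups compared in the fit the latter had an adjusted p of 2.67e-06. Between the untreated groups siControl cells held 199% of the control level of Mgp, with overlap and just under the fold minimum (0.99 on the log2 scale, SE 0.34, adjusted p = 0.00942), and without siControl replicate 1 the difference was 1.33 (adjusted p = 1.56e-05).

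Markers of adipocytes, the other main fate of these cells, differed between the groups too. The summed counts of the 10 listed markers, on the scale of all 18 libraries, were 26064 to 27580 in control, 40574 to 42265 in CK666 and 68654 to 72641 in CytoD cells. They were 70242 to 90296 in siControl, 19329 to 20519 in siArp4 and 65751 to 70875 in siArp4+CK666 cells. Most of that sum was Lpl, at a group mean of 67162 in siControl against 16191 in control cells, and the listed markers did not move together. Pparg averaged 3644 in control, 1922 in siControl and 2092 in siArp4+CK666 cells, and Plin1 averaged 105 in CK666 and 18.6 in siControl cells. Lep was at 0 in all libraries and Cfd and Retn stayed under 10, and the part of these cells or genes in the result for Mgp was not tested.

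Fgfr2 (ENSMUSG00000030849.18, chr7:130162451-133123350, minus strand) was the only member of 6 tested whose response to CK666 was called different between the experiments. In transfected cells it held 450.2, 287 and 429 normalized counts in siControl, 109, 112 and 138 in siArp4 cells and 473, 425 and 361 in siArp4+CK666 cells. All siArp4 libraries lay below the others, and siControl and siArp4+CK666 overlapped. Fgfr2 fell with siArp4 to 30.8% of siControl (-1.70 on the log2 scale, SE 0.25, adjusted p = 1.47e-10) and rose when CK666 was added to 351% of siArp4 (1.81 on the log2 scale, SE 0.25, adjusted p = 1.97e-11). The siArp4+CK666 level differed from siControl by 0.11 with a 95% interval of -0.36 to 0.58.

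In untransfected cells Fgfr2 held 785, 630.04 and 643 normalized counts in control, 692, 817 and 715 in CK666 and 1129.7, 1222 and 1230.3 in CytoD cells. Control and CK666 overlapped, and all CytoD libraries lay above both. CK666 gave 0.11 (95% interval -0.14 to 0.37), while CytoD gave 174% of control (0.80 on the log2 scale, SE 0.13, adjusted p = 7.38e-09), which passed the p threshold and not the fold minimum. siControl cells held 58.6% of the control level (-0.77 on the log2 scale, SE 0.17, adjusted p = 2.00e-05), again under the fold minimum. A transcript of Fgfr2 in the annotation runs far beyond the gene and shares 3.04% of its exon bases with Ctbp2, which averaged 726 normalized counts.

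The effects of CK666 with and without Arp4 knockdown were compared directly by an interaction contrast over all 18 libraries, in which 4.42% of all genes were called. Of 6 members tested 1 was called, Fgfr2. It responded to CK666 more in knockdown than in untransfected cells by 1.69 on the log2 scale (SE 0.24, 95% interval 1.22 to 2.17, adjusted p = 3.21e-10). The log2 fold change of Spp1 with CK666 was lower in knockdown cells, at -0.72, than in untransfected cells, at -0.15, a difference of -0.57 (SE 0.12, adjusted p = 9.73e-05), under the fold minimum, and with edgeR its adjusted p was 0.0130. The difference for Dlx5, 2.29 (SE 0.84), had an adjusted p of 0.0500 and was not called. Knockdown and transfection cannot be told apart in this contrast.

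**Figure D5:**
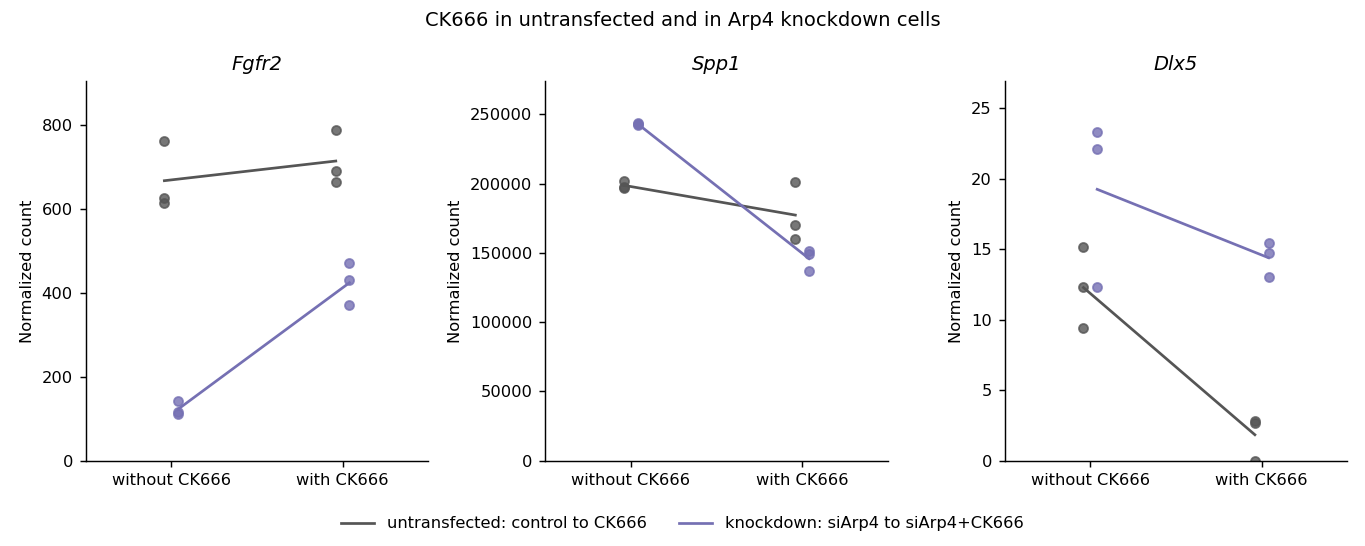
Normalized counts (scaled over all 18 libraries) of Fgfr2, Spp1 and Dlx5 without and with CK666, in untransfected cells (control to CK666) and in knockdown cells (siArp4 to siArp4+CK666), with points for libraries and lines through group means. The line of Fgfr2 climbs in knockdown cells and is nearly level in untransfected cells, that of Spp1 drops more in knockdown cells, and that of Dlx5 drops to near 0 in untransfected cells.

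The order of the groups differed from gene to gene. Fgfr2 ran from CytoD through CK666, control, siArp4+CK666 and siControl down to siArp4, with no overlap between neighbours at CytoD and CK666, control and siArp4+CK666, and siControl and siArp4. Spp1 ran from siArp4 through CytoD, control, CK666 and siArp4+CK666 down to siControl, and only control and CK666 overlapped. For Runx2, Mgp and Sp7 all neighbouring groups overlapped. Pairwise correlations of log2 levels over 18 libraries among Runx2, Spp1, Mgp and Fgfr2 ran from -0.33 to 0.34, as a description of libraries that share groups.

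Genes with patterns most like those of the members were listed as a description, being the highest of many correlations. Over 18 libraries and 10715 abundant protein-coding genes, the highest Pearson correlations with Fgfr2 were Snx9 (0.973), Gpr176 (0.967) and Slc5a3 (0.962). With Spp1 they were Myof (0.918), Fkbp9 (0.912) and Pdia3 (0.907). With Runx2 they were Arfgef2 (0.967), Zfp292 (0.965) and Zc3h4 (0.962), and with Mgp Lgmn (0.933), Dbp (0.933) and Arhgef10l (0.903).

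Around the 9 genes, 152 further genes of bone formation in 10 lists gave a wider view. With CK666, 9 were called higher and 18 lower of 126 tested, where 11.0% of all genes were called, and with CytoD 5 higher and 8 lower of 122, where 9.12% of all genes were. With siArp4, 26 were higher and 12 lower of 126, beside 16.2% of all genes, and adding CK666 to knockdown cells gave 4 higher and 20 lower of 123, beside 5.75%. The CytoD count lies near the share of all genes. The lists were written with earlier results of these data known, no list was tested against other genes, and each count below is a description to be read against these shares.

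Of 20 bone matrix proteins tested, 8 were called lower and none higher with CK666 (11.0% of all genes called, list median -0.80 beside 0.01 for all genes). With siArp4, 7 were higher and 2 lower (16.2% of all genes, median 0.99 beside -0.05), and with CK666 added to knockdown cells 8 were lower and 1 higher (5.75% of all genes, median -1.11 beside 0.02). Thbs1, thrombospondin 1 of the matrix, fell with CK666 from 114476 ± 5962 to 10920.2 ± 2503 normalized counts (log2 fold change -3.39, adjusted p = 2.33e-101). Dcn, the collagen-binding proteoglycan decorin, rose with siArp4 to 415 ± 38.7 against 24.6 ± 1.81 (log2 fold change 4.06, SE 0.27, adjusted p = 2.42e-50) and fell again when CK666 was added (log2 fold change -2.62, adjusted p = 1.41e-27). Ogn, another small proteoglycan, fell in both settings, with log2 fold change -1.13, adjusted p = 5.03e-22 for CK666 and log2 fold change -1.95, adjusted p = 2.75e-07 for siArp4.

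Of 14 genes of collagen processing, 2 were lower with CK666 (11.0% of all genes called), and 2 were higher and 1 lower with siArp4 (16.2%). Lox, which starts collagen cross-linking, fell with CK666 to 42269.6 ± 5005 against 124355 ± 2287 (log2 fold change -1.56, SE 0.10, adjusted p = 2.24e-51). Bmp1, which trims procollagen, rose with siArp4 to 38615 ± 639.97 against 12138 ± 584 (log2 fold change 1.67, SE 0.10, adjusted p = 2.16e-65). Of 8 tested genes of mineral and phosphate handling, 1 was higher and 2 lower with CK666 (11.0% of all genes called). Smpd3, a sphingomyelinase needed for mineralization, fell with both treatments (log2 fold change -2.98, adjusted p = 5.04e-33 for CK666, log2 fold change -2.37, adjusted p = 5.54e-23 for CytoD). Phospho1, a phosphatase that makes phosphate for mineral, was called higher with CK666 (log2 fold change 1.16, adjusted p = 6.97e-39), but 89.6% of its exon bases lie in Zfp652 on the same strand and 84.2% in Abi3 on the opposite strand, so its reads cannot be separated from theirs.

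Of the enzymes and other proteins of gamma-carboxylation, 2 of 6 were higher with CytoD (9.12% of all genes called) and 3 of 7 lower with siArp4 (16.2%). Bglap2 was among them in both cases, and so was Gas6, a secreted Gla protein, at 2429.7 ± 205 against 689 ± 24.9 (log2 fold change 1.82, SE 0.12, adjusted p = 4.81e-50) with CytoD and 220.4 ± 27.6 against 891 ± 57.9 (log2 fold change -2.01, SE 0.16, adjusted p = 4.18e-33) with siArp4. Among the receptors of osteopontin and sialoprotein, 3 of 7 were higher with siArp4, beside 16.2% of all genes called. Itga5 stood at 9339 ± 453 against 2126 ± 283 (log2 fold change 2.13, SE 0.16, adjusted p = 1.47e-39) with siArp4 and Itgb5 at 23708 ± 746 against 8903 ± 1954 (log2 fold change 1.41, SE 0.20, adjusted p = 2.01e-11). Itgb3 was instead higher with CK666, at 682 ± 79.0 against 273 ± 32.2 (log2 fold change 1.32, SE 0.15, adjusted p = 8.47e-18).

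Hormone receptors and osteoclast signals showed 3 of 10 lower with CK666 (11.0% of all genes called) and 3 of 10 higher with siArp4 (16.2%). Vdr, the vitamin D receptor, was in both sets, at 57.2 ± 9.44 against 199 ± 9.58 (log2 fold change -1.80, SE 0.20, adjusted p = 4.90e-18) with CK666 and 449.8 ± 7.85 against 115 ± 14.9 (log2 fold change 1.96, SE 0.19, adjusted p = 5.69e-24) with siArp4. Ptger4, a prostaglandin E2 receptor, went the same ways (log2 fold change -1.91, adjusted p = 1.97e-35 with CK666, log2 fold change 1.52, adjusted p = 6.01e-17 with siArp4), although an antisense gene covers 15.3% of its exons. When CK666 was added to knockdown cells both fell (log2 fold change -1.77, adjusted p = 1.98e-19 for Vdr, log2 fold change -1.84, adjusted p = 2.20e-23 for Ptger4).

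Of 25 other osteoblast transcription factors, 2 were higher and 2 lower with CK666, 1 higher and 2 lower with CytoD, and 5 higher and 1 lower with siArp4. The shares of all genes called were 11.0%, 9.12% and 16.2% in these comparisons. Atf4, which works with Runx2 at osteocalcin, parted the treatments, rising with CK666 to 14367 ± 3451 against 5318 ± 93.7 (log2 fold change 1.43, SE 0.16, adjusted p = 9.80e-19) and falling with CytoD (log2 fold change -1.34, adjusted p = 3.19e-16). Fosl2, an AP-1 factor, fell with CK666 (log2 fold change -1.55, adjusted p = 3.64e-30), and Nfatc1 fell with CK666 and with siArp4 (log2 fold change -1.27, adjusted p = 8.74e-15 and log2 fold change -1.51, adjusted p = 5.27e-09). Of the BMP pathway 2 of 19 were higher with CK666, Chrdl1 among them (log2 fold change 2.07, adjusted p = 4.12e-08), and with siArp4 2 were higher and 2 lower of 18. Smad7, an inhibitor of this signal, rose there to 1634 ± 45.4 against 623 ± 15.9 (log2 fold change 1.39, SE 0.11, adjusted p = 3.66e-36).

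In the pathway of Fgfr2 itself, 1 of 14 tested genes was higher and 3 lower with siArp4, and 2 of 15 were higher and 1 lower with CK666, beside 16.2% and 11.0% of all genes called. The ligand Fgf2 fell with CK666 (log2 fold change -1.29, adjusted p = 1.52e-13). Spry1, a feedback inhibitor that FGF signals induce, fell with siArp4 to 732 ± 51.8 against 1577 ± 272 (log2 fold change -1.11, SE 0.19, adjusted p = 1.43e-07), and an antisense gene covers 24.4% of its exons. Unlike Fgfr2, Spry1 was still called lower than siControl when CK666 was added (log2 fold change -1.56, adjusted p = 1.94e-14). Of the SIBLING and osteocyte genes 2 or 3 were high enough to test, and Phex, an endopeptidase of osteocytes, rose with siArp4 to 86.8 ± 9.14 against 22.96 ± 12.3 (log2 fold change 1.88, SE 0.38, adjusted p = 9.19e-06).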

How the data were processed

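RNA-seq of 18 libraries of mouse MSC was analysed. Libraries were unstranded and paired-end. The authors quantified reads with Salmon 1.2.1 (GRCm38, GENCODE vM25) and deposited estimated counts per gene, not scaled between samples. How transcripts were summed to genes is not given in the sources used here. Estimated counts were rounded, and symbols and coordinates came from GENCODE vM21 on the same build (54094 identifiers matched, 253 did not).

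DESeq2 1.42.0 in R 4.3.3 (two-sided Wald test, no shrinkage, independent filtering at 0.01) was fitted to all genes of the 9 libraries of an experiment with group as the only term, or to all 18 for siControl against control and for the interaction. A gene was called at an absolute log2 fold change over 1 and a Benjamini-Hochberg adjusted p below 0.01. Genes without an adjusted p were counted as not tested. Normalized counts were divided by DESeq2 size factors. Intervals of estimates are 95% Wald intervals. The fit was tested on simulated data. Alternatives were TMM size factors, edgeR 4.0.16, filters, fold rules, other library sets, summed osteocalcin copies, a replicate block and leaving out each library.

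Members and lists were chosen with earlier results of these data known. Named genes are the members, genes sharing at least 10% of their 31-base words, Actl6a, at most 4 called genes per list with a mean count of at least 50, and the 3 genes most alike in log2(normalized count + 1) to each member with a mean of at least 50. Of the list genes so taken, only some are described.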

Additional observations from a re-analysis of the deposited data

Results flagged for a closer look

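The effect of CK666 differed between knockdown and untransfected cells for Fgfr2, by 1.69 on the log2 scale, as the interaction term in DESeq2 showed (adjusted p = 3.21e-10). Each siArp4+CK666 library lay above each siArp4 library, while control and CK666 libraries overlapped.

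For Spp1 the same term gave -0.57 (adjusted p = 9.73e-05), below the fold minimum. Each siArp4+CK666 library lay below each siArp4 library, while control and CK666 libraries overlapped.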

How the results depend on the processing

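Log2 fold changes of the members, Bglap2 and Actl6a (67 results) were recomputed under the alternatives, giving 1011 values, of which 948 kept their direction and side of the threshold, 25 were weaker, 21 stronger and 17 reversed, the last among uncalled values only. Of 1755 values for 117 calls of list genes, 163 were weaker and none reversed. No scaling moved the median of all genes by over 0.1.

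The number of members called with CK666 against control (2) was 1 with a filter on low counts or with only the groups compared, 0 with edgeR and 0 when tested against a log2 fold change of 1, and 1 to 2 leaving out a library. With CytoD (2) it was 1 in a fit of all 18 libraries, 1 with edgeR, 0 tested against 1, and 1 to 2 leaving out a library. CK666 against CytoD (2) and siArp4 against siControl (2) gave 1 tested against 1, and 2 to 3 leaving out a library for the latter. siArp4+CK666 against siControl (0) gave 1 with no fold minimum and 0 to 1 leaving out a library. siArp4+CK666 against siArp4 (1) gave 2 with no fold minimum, 2 with only the groups compared and 0 tested against 1. siControl against control (2) gave 1 with the low-count filter, with edgeR and with only the groups compared, 4 with no fold minimum, 0 tested against 1 and 1 to 4 leaving out a library. The interaction (1) gave 2 with no fold minimum and 0 tested against 1.

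Reversed values were -0.0038 for Bglap in CK666 against CytoD with all 18 libraries and, leaving out a library, -0.50 to 0.32 for Alpl and -0.25 to 0.25 for Mgp in CK666 against control, -0.32 to 0.44 for Bglap in CK666 against CytoD, -0.12 to 0.29 for Dlx5 in siArp4 against siControl, -0.088 to 0.82 for Mgp and -0.070 to 0.23 for Fgfr2 in siArp4+CK666 against siControl, and -0.63 to 3.13 for Alpl in the interaction. The causes were not tested.

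Counts of all genes called, 1599, 1251, 1778, 2494, 3150, 811, 3498 and 597 in the order of the report with the interaction last, were 4381, 4067, 4779, 3867, 1395, 6103 and 1056 with no fold minimum (siArp4+CK666 against siControl moved by less than 1.5 times), 349, 147, 438, 431, 792, 145, 631 and 58 tested against 1, and with edgeR 466 for siArp4+CK666 against siArp4 and 384 for the interaction.

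Whether replicate numbers pair the libraries is not known. Of 18 pairs of same-numbered libraries 5 had a correlation of deviations over 0.1 (-0.51 to 0.71). These values cannot decide it, since differently numbered libraries were not compared. With the replicate block the members called stayed at 2, 2, 2, 2, 0, 1, 2 and 1, the same genes, and all genes called numbered 1497, 1172, 1687, 2390, 3091, 769, 3420 and 548. Depth limits Sp7, Alpl, Bglap and Dlx5, whose estimated counts stayed under 10 in 17, 10, 16 and 3 of 18 libraries.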
